A study of Rattus norvegicus with 28 samples.

Results

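The comparison described here asks whether a sciatic nerve crush went with a different change in the striatum of transgenic rats than in the striatum of wild-type rats. It was computed per gene as the crush-minus-naive difference of transgenic rats minus the crush-minus-naive difference of wild-type rats, and this difference of differences is called the interaction below. It used 28 of the 28 RNA-seq libraries of the study and 16742 of the 39538 genes in the deposited table. These were the genes with a level of at least 1 RPM, or 1 of each 1000000 assigned reads, in 6 or more libraries. All rats were male, and every library, naive ones included, carries a label of 12 weeks post injury. The study set the rats up as a rodent model of DYT-TOR1A dystonia, a hereditary disorder of movement in which TOR1A has lost a glutamate codon.

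There were 6 libraries of transgenic rats with a crush of the right sciatic nerve (TG crush) and 8 of transgenic rats without surgery in their label (TG naive). Wild-type rats gave 6 libraries with the same crush (wt crush) and 8 naive libraries (wt naive). The genotype label of the transgenic rats reads {delta}ETorA, and human TOR1A reads have their own row in the deposited table. Neither the promoter of the transgene nor the side of the striatum is stated in the labels. Libraries are numbered singly with no statement on separate animals, so the p-values reflect how far these libraries scatter, which may be technical.

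TOR1A encodes torsinA, an ATPase of the endoplasmic reticulum and nuclear envelope. The striatum is the input station of the basal ganglia and consists mostly of spiny projection neurons. Several results below concern the circadian clock, a feedback loop present in most cells. In it, ARNTL (also called BMAL1) and its partners CLOCK and NPAS2 switch on genes with E-box sites, among them the Per, Cry and Nr1d genes. The PER and CRY proteins then repress that switch, while the nuclear receptors NR1D1 and NR1D2 (REV-ERB alpha and beta) repress Arntl itself. Clock transcripts cycle over the day, and the labels give no hour of tissue sampling.

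The human TOR1A transcript separated the genotypes. It averaged 131 ± 14.1 RPM in TG crush and 0.104 ± 0.172 RPM in wt crush libraries (SD, n = 6 each, exact two-sided permutation p = 0.00216). In naive rats it averaged 138 ± 4.81 RPM in TG and 0.227 ± 0.324 RPM in wt libraries (SD, n = 8 each, exact two-sided permutation p = 0.000155). Both p-values are the smallest these tests can give. Its interaction was 0.13 on the log2 scale (SE 0.24, adjusted p = 0.905). The wt means lie below the 0.5 RPM added before the log, so the wt side of this value rests on levels near 0. In TG libraries the mean was lower after crush, at 131 against 138 RPM. Rat Tor1a averaged 21.2 ± 2.25 RPM in TG crush and 22.0 ± 1.28 RPM in wt crush libraries (SD, n = 6 each, exact permutation p = 0.511).

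The libraries held 29151455 to 38407359 assigned reads. The RNA levels of cell type markers were unequal across the groups. The mean level of 17 spiny neuron markers, on the log2(RPM + 0.5) scale, was 8.90 ± 0.35 in TG crush, 8.92 ± 0.27 in TG naive, 9.18 ± 0.08 in wt crush and 8.79 ± 0.41 in wt naive libraries (SD, n = 6, 8, 6 and 8). The summed level of these markers ran from 8254 to 15542 RPM in TG crush, from 8441 to 14434 in TG naive, from 13520 to 15689 in wt crush and from 7609 to 15357 in wt naive libraries. Each of the other 3 groups held libraries far below the lowest wt crush library, and the interaction of the mean level was -0.41 log2. Slc17a7, the vesicular glutamate transporter of cortical excitatory neurons, exceeded 20 RPM in 1 TG crush, 1 TG naive, 0 wt crush and 3 wt naive libraries. In bulk tissue, fewer cells of a type and less RNA per cell cannot be told apart.

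**Figure D1:**
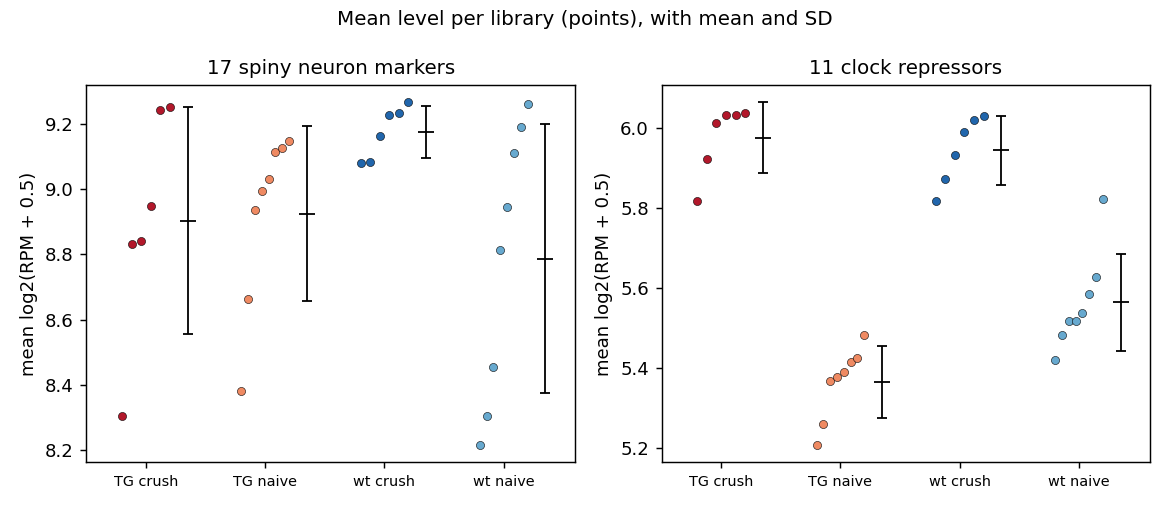
Mean log2(RPM + 0.5) per library of 17 spiny neuron markers (left) and of 11 clock repressors (right) in the 4 groups; points are libraries, bars are mean and SD. The spiny neuron markers of wt crush libraries lie between 9.08 and 9.27 while every other group has libraries below 8.90, and the clock repressors of TG naive libraries lie between 5.21 and 5.48, overlapping wt naive and below both crush groups.

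A single gene passed the test of the interaction. Nr1d2 was called at an adjusted p under 0.05 (limma with Benjamini-Hochberg adjustment over 16742 genes), which is 0.00597% of the genes tested, and the next lowest adjusted p was 0.137. An unadjusted p under 0.05 was reached by 1245 genes (7.44%), 720 with a positive (4.30%) and 525 with a negative (3.14%) interaction, where 5% of the genes would be 837.1. The count fell below 837.1 with spiny neuron level in the model (760) and without the libraries over 20 RPM of Slc17a7 (637). With TG crush library 223 also left out it was 483. With libraries left out in turn it ran from 962 to 1708. Under the other settings that tested 16742 genes, described below, it ran from 1195 to 1400. The excess over 837.1 therefore depended on the setting. Over all genes the median interaction was 0.01 log2 and 53.0% were positive. The median SE was 0.118 for the interaction and 0.0833 for the crush change of either genotype, so the interaction is measured less precisely than either of its sides.

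The number of genes called for a crush change depended on the genotype and on the setting. In TG rats 570 genes passed (3.40%), 193 higher (1.15%) and 377 lower (2.25%) after crush. In wt rats 28 passed (0.167%), 7 higher (0.0418%) and 21 lower (0.125%). With array weights, which count libraries with larger scatter less, the calls were 1881 in TG and 1705 in wt rats, and with spiny neuron level in the model 1286 and 7. Another scaling evened the TG split, to 298 higher and 309 lower with median-of-ratios rescaling and to 290 higher and 305 lower with quantile normalization. These counts rest on few libraries: leaving out 1 library at a time gave 230 genes (without TG crush library 220) to 1269 (without TG crush library 223) in TG rats, and 11 (without wt crush library 205) to 613 (without wt naive library 196) in wt rats. The numbers of genes with an unadjusted p under 0.05 were 3342 in TG and 3652 in wt rats. The difference between the 2 counts of calls is no test of the interaction, for which 1 gene passed. Of the 570 genes, 504 had the same direction in wt rats. Their median absolute crush change was 0.31 log2 in TG rats, which chose them, and 0.13 in wt rats, and for the 28 genes called in wt rats it was 0.50 in TG and 0.51 in wt rats. Called in both were 19 genes, all in the same direction.

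**Figure D2:**
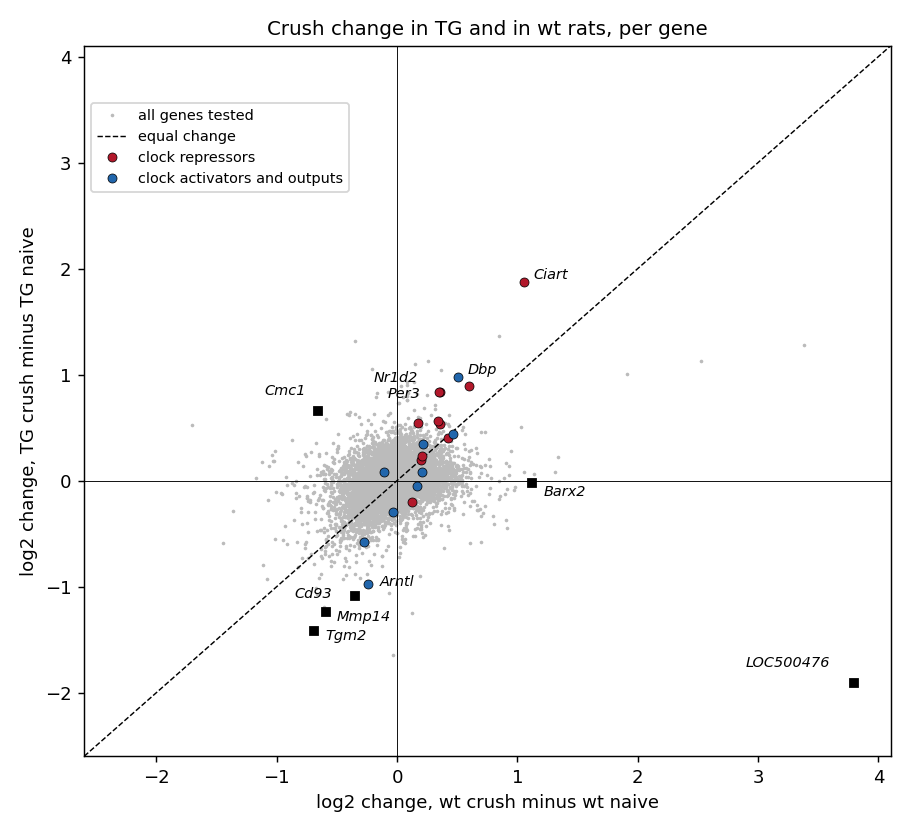
Crush-minus-naive log2 change of every tested gene in TG rats (vertical) against that in wt rats (horizontal); the dashed line marks an equal change, so the vertical distance from it is the interaction. Red points are clock repressors, blue points clock activators and outputs, and black squares other genes named in the text. Nr1d2 (0.83 in TG, 0.36 in wt rats) and Ciart (1.87 in TG, 1.05 in wt rats) lie above the line and Tgm2 (-1.42 in TG, -0.69 in wt rats) below it.

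Nr1d2 encodes REV-ERB beta, a nuclear receptor that represses Arntl and other clock genes, and lies on chromosome 15 at 8730871 to 8757165 (Rnor_6.0). Its lowest, median and highest levels were 111, 118 and 131 RPM in TG crush, 58.9, 66.9 and 72.0 RPM in TG naive, 103, 107 and 118 RPM in wt crush, and 75.4, 86.0 and 94.6 RPM in wt naive libraries. Crush libraries lay above all naive libraries of their genotype in both TG and wt rats, as did 0.227% and 0.131% of all genes tested. TG naive libraries lay below all wt naive libraries, as did 0.0418% of the genes, whereas the crush groups of the 2 genotypes overlapped.

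The log2 crush change of Nr1d2 was 0.83 (SE 0.05, adjusted p = 1.39e-11) in TG rats and 0.36 (SE 0.05, adjusted p = 0.000693) in wt rats, or 1.78-fold and 1.28-fold. Its interaction was 0.48 log2 (SE 0.07, adjusted p = 0.00746), a crush ratio 1.39 times as large in TG as in wt rats. Seen from the genotypes, TG minus wt was 0.12 log2 after crush (adjusted p = 0.607) and -0.36 in naive rats (adjusted p = 0.000295). It passed whichever single library was left out (0.45 to 0.50 log2, adjusted p 0.0017 to 0.026) and in 11 of 13 other alternatives. The call was lost without the 5 libraries over 20 RPM of Slc17a7 (adjusted p = 0.244) and when TG crush library 223 was left out with them (adjusted p = 0.302), while the interaction lay between 0.46 and 0.50 in all 13.

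**Figure D3:**
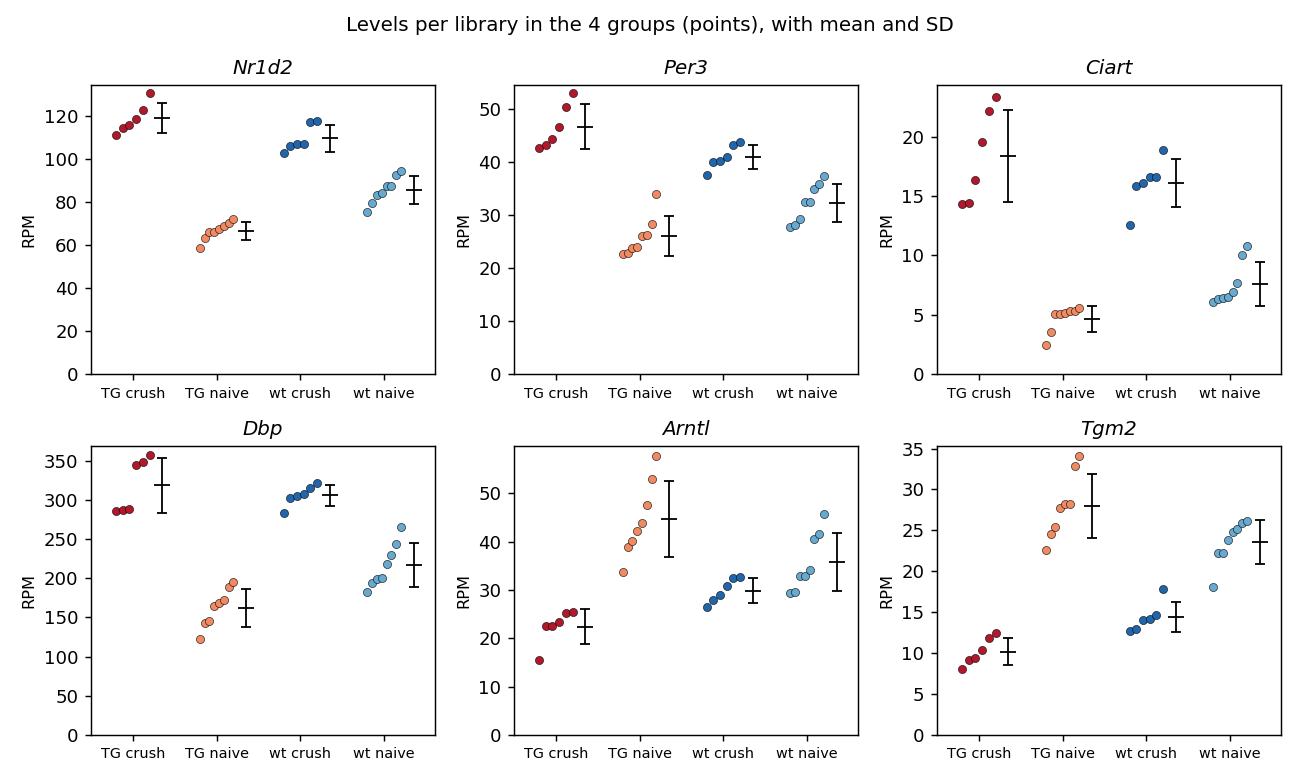
Level in RPM (vertical axes, from 0) of Nr1d2, Per3, Ciart, Dbp, Arntl and Tgm2 in every library of the 4 groups; points are libraries sorted by level, bars are mean and SD. In Nr1d2, Per3, Ciart and Dbp all crush libraries lie above all naive libraries of their genotype; in Tgm2 all crush libraries lie below them, and in Arntl this holds in TG rats.

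Promoter sequences are shown for 3 clock genes. These are the repressors Nr1d2 and Ciart, which had positive interactions, and the activator Arntl, which had a negative one. Each promoter holds a match to at least 1 of the motifs searched. The sequences are the 250 bases before the RefSeq transcription start in build GRCr8, in lower case with matches in capitals. Nr1d2 lies at chr15:9954784-9955033 on the plus strand, and its capitals mark AGGTCA, the core site of nuclear receptors. Ciart lies at chr2:186112247-186112496 on the minus strand, and its capitals mark 3 E-boxes (CACGTG). Arntl, listed as Bmal1, lies at chr1:176766078-176766327 on the plus strand, and its capitals mark AGGTCA preceded by AAAGT. That is a form of the ROR response element, at which REV-ERB and ROR receptors compete.
Nr1d2: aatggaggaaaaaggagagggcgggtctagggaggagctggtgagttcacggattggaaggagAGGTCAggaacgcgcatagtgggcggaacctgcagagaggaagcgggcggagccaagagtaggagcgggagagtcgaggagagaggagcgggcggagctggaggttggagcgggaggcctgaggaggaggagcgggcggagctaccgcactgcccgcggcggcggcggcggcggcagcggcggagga
Ciart: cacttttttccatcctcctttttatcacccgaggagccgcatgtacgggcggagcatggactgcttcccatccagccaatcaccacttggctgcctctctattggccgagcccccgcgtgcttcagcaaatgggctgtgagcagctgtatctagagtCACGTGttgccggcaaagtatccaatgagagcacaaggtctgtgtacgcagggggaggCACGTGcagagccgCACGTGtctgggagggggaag
Arntl: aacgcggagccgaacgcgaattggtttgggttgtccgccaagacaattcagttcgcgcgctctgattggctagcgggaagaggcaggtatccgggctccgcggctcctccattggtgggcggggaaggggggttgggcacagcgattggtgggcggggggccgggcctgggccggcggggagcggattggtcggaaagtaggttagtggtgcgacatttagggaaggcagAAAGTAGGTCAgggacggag
Of 20 clock genes, 17 had a promoter in the table, 19 promoters in all. On both strands, CACGTG was found in those of 5 of these genes (Ciart, Nr1d1, Bhlhe40, Bhlhe41 and Tef), against 5.59% of 33469 promoters. The D-box TTATGTAA, read by DBP, TEF, HLF and NFIL3, was found in Per2 alone of them, against 0.828% of all promoters. AGGTCA preceded by AAAGT was found in Arntl, the 1 match among all 33469 promoters (0.00299%). Only these exact letters, 1 form of the element, were searched, so promoters without a match may hold other forms of it. The single match therefore does not tell how rare the element is among promoters. AGGTCA alone, which is part of that longer motif, was found in Nr1d2 and Arntl, against 14.1% of all promoters. These matches describe letters in a short window and no binding was measured.

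The clock repressors had mostly positive interactions. Of 11 tested, 9 were positive in RPM and 8 after median-of-ratios rescaling, since Cry2 sat at 0.00 log2. Their median was 0.22 log2, against 0.01 over all genes, and Nr1d2 was the 1 member called. After crush 10 of 11 were called higher in TG rats, against 1.15% of all genes. In wt rats 4 of 11 were called higher, against 0.0418%. The members of both clock lists were chosen with earlier results of these data known, so such shares describe the lists and are no test. By sign alone, against 46.2% and 41.8% of all genes, 10 of 11 repressors were positive in TG rats and 11 of 11 in wt rats. Their mean level was 5.98 ± 0.09 in TG crush, 5.37 ± 0.09 in TG naive, 5.94 ± 0.09 in wt crush and 5.56 ± 0.12 in wt naive libraries (log2 scale, SD, n = 6, 8, 6 and 8). The median interaction was 0.27 with spiny neuron level as a covariate, 0.22 without the 5 libraries high in Slc17a7 and 0.25 without TG crush library 223.

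Per3, a period gene, had lowest, median and highest levels of 42.7, 45.5 and 53.1 RPM in TG crush, 22.6, 25.1 and 34.1 in TG naive, 37.6, 40.7 and 43.8 in wt crush, and 27.8, 32.5 and 37.4 in wt naive libraries. The crush libraries stood above the naive ones without overlap in both genotypes, by 0.84 log2 (SE 0.08) in TG rats and 0.34 (SE 0.08, adjusted p = 0.0525) in wt rats. Its interaction was 0.49 (SE 0.11, adjusted p = 0.296). It passed only without TG naive library 187 (adjusted p = 0.0427).

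Ciart, which encodes a repressor of CLOCK and ARNTL, showed the greatest crush changes among the clock genes. Its levels were 14.4, 17.9 and 23.3 RPM in TG crush, 2.44, 5.11 and 5.55 in TG naive, 12.5, 16.3 and 18.8 in wt crush, and 6.11, 6.70 and 10.8 in wt naive libraries, again lowest, median and highest. TG naive libraries lay below all wt naive libraries, and the 2 crush groups overlapped. The crush change was 1.87 log2 (SE 0.15) in TG and 1.05 (SE 0.15) in wt rats, and the interaction 0.82 (SE 0.22, adjusted p = 0.359).

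Bhlhe40 and Bhlhe41, the DEC repressors that bind E-boxes, had interactions of 0.37 (SE 0.13) and 0.22 (SE 0.08), each with adjusted p = 0.575. The other period and REV-ERB genes were closer to equal changes. Per2 had an interaction of 0.30 (SE 0.18) and rose in both genotypes, by 0.89 in TG and 0.60 in wt rats. Nr1d1, which encodes REV-ERB alpha, had 0.18 (SE 0.12, adjusted p = 0.734). It lay at 85.9, 103 and 126 RPM in TG crush, 61.1, 72.8 and 81.7 in TG naive, 122, 127 and 131 in wt crush, and 82.7, 99.6 and 122 in wt naive libraries. Unlike the levels of Nr1d2, those of Nr1d1 were also lower in most TG crush libraries, with 5 of 6 below every wt crush library.

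Per1, Cry2 and Cipc, a CLOCK-interacting repressor, had interactions of -0.02 (SE 0.15), 0.00 (SE 0.07) and 0.02 (SE 0.07). The sign of the first 2 changed with scaling or left-out libraries. Per1 rose by 0.40 log2 in TG rats and had 0.42 (adjusted p = 0.0767) in wt rats, and Cry2 rose by 0.20 in TG rats and had 0.20 (adjusted p = 0.0620) in wt rats. Cry1, a cryptochrome, was the repressor with the lowest interaction, at -0.33 (SE 0.13, adjusted p = 0.621).

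The activators and output factors of the clock went both ways. Of 9 tested, 3 had a positive and 6 a negative interaction, and the median was -0.12 log2. None was called by limma, and an unadjusted p under 0.05 was reached by 2 of the positive and 3 of the negative ones, against 4.30% and 3.14% of all genes. With spiny neuron level as a covariate 5 of 9 were positive and the median was 0.03, and without TG crush library 223 it was -0.06. In TG rats 3 were called higher and 3 lower after crush, against 1.15% and 2.25% of all genes. In wt rats 1 was called higher, against 0.0418%. By sign alone, 5 of the 9 had a positive and 4 a negative crush change in each genotype.

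Arntl encodes the activator that NR1D1 and NR1D2 repress and lies on chromosome 1 at 178039002 to 178137469 (Rnor_6.0). Its lowest, median and highest levels were 15.5, 23.0 and 25.4 RPM in TG crush, 33.7, 43.1 and 57.8 in TG naive, 26.5, 29.9 and 32.6 in wt crush, and 29.3, 33.5 and 45.8 in wt naive libraries. TG crush libraries lay below all TG naive libraries, as did 0.550% of genes, and below all wt crush libraries, as did 0.149%. The groups of wt rats overlapped. Arntl fell by 0.98 log2 (SE 0.11, adjusted p = 3.41e-06) in TG rats, and its change in wt rats was -0.25 (SE 0.11, adjusted p = 0.214). The interaction was -0.73 (SE 0.16, adjusted p = 0.290), opposite in sign to that of Nr1d2. The partners of ARNTL had smaller values, with -0.26 (SE 0.10) for Npas2 and -0.22 (SE 0.11) for Clock.

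Dbp, an output factor driven by E-boxes, ranged as 286, 316 and 358 RPM in TG crush, 123, 166 and 196 in TG naive, 283, 307 and 322 in wt crush, and 182, 210 and 266 in wt naive libraries. Crush exceeded naive libraries without overlap in both genotypes. The changes were 0.98 log2 (SE 0.09) in TG and 0.51 (SE 0.09) in wt rats, and the interaction was 0.47 (SE 0.13, adjusted p = 0.359). Among the other output factors, Tef had 0.13 (SE 0.08), Hlf -0.03 (SE 0.16) and the repressor Nfil3, which competes with them at D-boxes, -0.31 (SE 0.17). The ROR receptors, which oppose the REV-ERBs, had 0.19 (SE 0.09) for Rorb and -0.12 (SE 0.13) for Rora. Rora and Hlf turned positive with the spiny neuron covariate, at 0.03 and 0.25.

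The 20 genes named for the interaction were Nr1d2 and the 19 genes of next lowest p with a mean of at least 2 RPM. None of these 19 passed, and their adjusted p ran from 0.137 to 0.359. Chosen by that p, 10 were positive and 10 negative. The crush change was larger in size in TG rats for 19 of 20, the exception being Barx2, and 17 of 20 passed in TG rats, against 4 in wt rats, where 3.40% and 0.167% of all genes passed. These crush changes are the 2 sides of the interaction that chose the genes, so the counts describe the choice. The genotype difference had opposite signs in naive and crush rats for all 20.

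**Figure D4:**
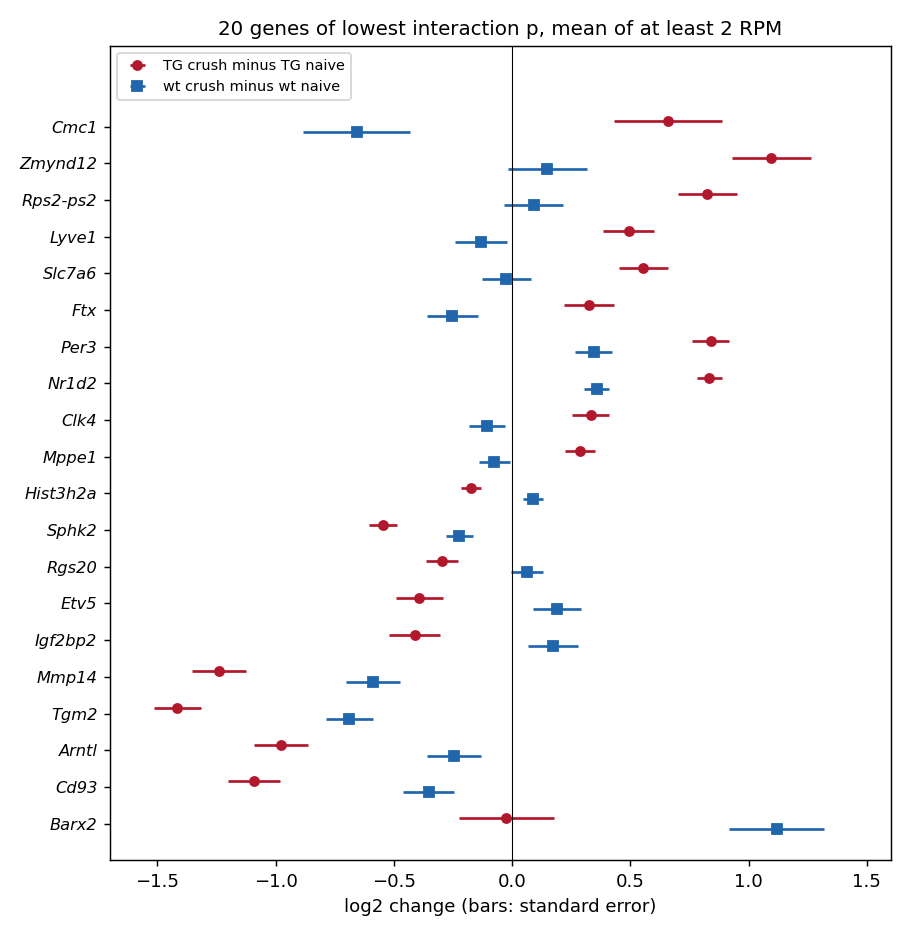
Crush-minus-naive log2 change in TG rats (red circles) and wt rats (blue squares) of the 20 genes of lowest interaction p among those with a mean of at least 2 RPM, with bars of 1 standard error, ordered by the interaction from positive (top) to negative (bottom). The gap between the 2 points of a gene is its interaction; it is widest for Cmc1 (0.66 in TG, -0.66 in wt rats), and Nr1d2 (0.83 in TG, 0.36 in wt rats) has the smallest bars relative to its gap.

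Tgm2, which encodes the protein-crosslinking enzyme transglutaminase 2, had the second lowest p of all genes tested. It lies on chromosome 3 at 154597165 to 154627257 (Rnor_6.0). Its levels were 7.99, 9.87 and 12.4 RPM in TG crush, 22.6, 27.9 and 34.0 in TG naive, 12.7, 14.1 and 17.9 in wt crush, and 18.1, 24.3 and 26.2 in wt naive libraries. The crush libraries lay below the naive ones without overlap in both genotypes, as did 0.550% of genes in TG and 0.561% in wt rats, and TG crush lay below all wt crush libraries. Tgm2 fell by 1.42 log2 (SE 0.10) in TG and by 0.69 (SE 0.10) in wt rats. The interaction was -0.73 (SE 0.14, adjusted p = 0.137), and it passed with array weights (adjusted p = 0.0237) and without TG crush library 214 or 223.

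Cd93, a surface receptor of endothelial cells, had levels of 5.41, 6.78 and 9.54 RPM in TG crush, 13.8, 15.7 and 17.1 in TG naive, 8.24, 10.1 and 12.4 in wt crush, and 10.6, 13.8 and 16.3 in wt naive libraries. TG crush lay below all TG naive libraries, and the wt groups overlapped. The change was -1.09 log2 (SE 0.11, adjusted p = 1.31e-07) in TG and -0.35 (SE 0.11, adjusted p = 0.119) in wt rats, and the interaction -0.74 (SE 0.15, adjusted p = 0.150). It too passed without TG crush library 214 or 223. The 16 endothelial and pericyte markers as a list had a median interaction of 0.03, with 9 positive and 7 negative (-0.05 without library 223 and -0.02 with spiny neuron level as a covariate), so Cd93 stood away from the middle of its list. Pecam1, the adhesion molecule of the same cells, had -0.24 (SE 0.12).

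Mmp14, a membrane-bound matrix protease, fell by 1.24 log2 in TG and by 0.59 in wt rats, with an interaction of -0.65 (SE 0.16, adjusted p = 0.328). Its levels were 4.29, 5.36 and 5.90 RPM in TG crush, 10.5, 13.1 and 18.6 in TG naive, 5.71, 6.0 and 7.23 in wt crush, and 7.58, 9.37 and 13.5 in wt naive libraries. Sphk2, a sphingosine kinase, fell by 0.55 in TG rats and had -0.22 (adjusted p = 0.0801) in wt rats, with an interaction of -0.32 (SE 0.08). Sphk2 starts at 101692972 on chromosome 1, just past the end of Dbp at 101692845, and it was not stated whether reads were counted by strand. Etv5, an ETS transcription factor, and Igf2bp2, an mRNA-binding protein, each had -0.58 (SE 0.14 and 0.15). Hist3h2a, a histone H2A gene of a multigene family whose reads may be split among copies, had -0.26 (SE 0.06), and Rgs20, a regulator of G protein signalling, -0.36 (SE 0.09).

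Barx2, a homeobox gene, was the 1 of these 20 genes with a larger crush change in wt than in TG rats. Its levels were 1.31, 1.99 and 2.97 RPM in TG crush, 1.07, 2.09 and 3.40 in TG naive, 2.63, 4.79 and 5.51 in wt crush, and 1.15, 1.73 and 2.03 in wt naive libraries. It rose by 1.12 log2 (SE 0.20, adjusted p = 0.00873) in wt rats, without overlap, and its change in TG rats was -0.02 (SE 0.20). The interaction was -1.14 (SE 0.28, adjusted p = 0.328).

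Among the positive of these 20 genes, Cmc1, an assembly factor of cytochrome c oxidase, had the largest interaction, at 1.32 (SE 0.32, adjusted p = 0.328). It ranged as 2.44, 5.16 and 8.05 RPM in TG crush, 1.54, 3.05 and 4.13 in TG naive, 1.86, 3.35 and 4.24 in wt crush, and 2.83, 5.57 and 8.28 in wt naive libraries, so all groups overlapped. Zmynd12, a zinc finger gene, rose by 1.10 (SE 0.17) in TG rats and had 0.15 (SE 0.17) in wt rats, with an interaction of 0.95 (SE 0.24). Its TG crush levels of 8.31, 8.66 and 9.56 RPM stood above all TG naive levels of 2.67, 4.01 and 4.74 RPM, against 4.56, 7.26 and 10.3 RPM in wt crush and 4.24, 6.35 and 9.50 RPM in wt naive libraries. Lyve1, a hyaluronan receptor of lymphatic endothelium and of macrophages at brain borders, had 0.62 (SE 0.15), and Slc7a6, an amino acid transporter, 0.58 (SE 0.15). The noncoding RNA Ftx had 0.58 (SE 0.15), the splicing kinase Clk4 0.44 (SE 0.11) and the phosphoesterase Mppe1 0.36 (SE 0.09). Rps2-ps2, at 0.73 (SE 0.18), is a pseudogene copy of a ribosomal protein gene, and its reads may come from the parent gene.

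All 17 spiny neuron markers had a negative interaction, none passing limma's test and 1 with an unadjusted p under 0.05 (3.14% of all genes on the negative side), with a median of -0.37 log2 against 0.01 over all genes. The values ran from -0.76 to -0.30. The crush change of the list had a median of 0.00 in TG rats and 0.41 in wt rats. Tac1, the substance P precursor of the direct pathway, had -0.76 (SE 0.36), Drd1, the dopamine D1 receptor, -0.53 (SE 0.28), and Adcy5, the striatal adenylyl cyclase, -0.37 (SE 0.20). Drd1 lay at 135, 256 and 358 RPM in TG crush, 149, 247 and 335 in TG naive, 296, 340 and 379 in wt crush, and 144, 237 and 357 in wt naive libraries, so the wt crush group lacked the low libraries present in the other 3. The median of the list was -0.24 without the 5 libraries high in Slc17a7 and -0.09 when TG crush library 223 was left out as well.

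Genes of dopamine and cAMP signalling, a list that shares members with the spiny neuron markers, were negative for 14 of 17 with a median of -0.28, and Gnal, the striatal G protein subunit, had -0.37 (SE 0.18). With spiny neuron level as a covariate the median was -0.01, in part by construction, since the shared members enter that level. Immediate early genes, which neurons switch on with activity, were negative for 19 of 21 with a median of -0.28, and 0 were called by limma, against 0.00597% of all genes, with 3 negative ones at an unadjusted p under 0.05, against 3.14%. Homer1 and Egr3 each had -0.50 (SE 0.20 and 0.21), and Fosb -0.64 (SE 0.30). The median of these genes was -0.09 with the covariate and -0.12 without the libraries high in Slc17a7. AMPA, kainate and NMDA receptor subunits had a median of -0.09, which was 0.01 without TG crush library 223, with -0.33 (SE 0.15) for Gria4 and 0.20 (SE 0.10) for Grik5. Vgf, a neuropeptide precursor induced by neurotrophins, had -0.63 (SE 0.19, adjusted p = 0.446). It lay at 40.4, 70.7 and 83.7 RPM in TG crush and 83.7, 88.2 and 106 RPM in wt crush libraries, where the 2 groups narrowly did not overlap.

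**Figure D5:**
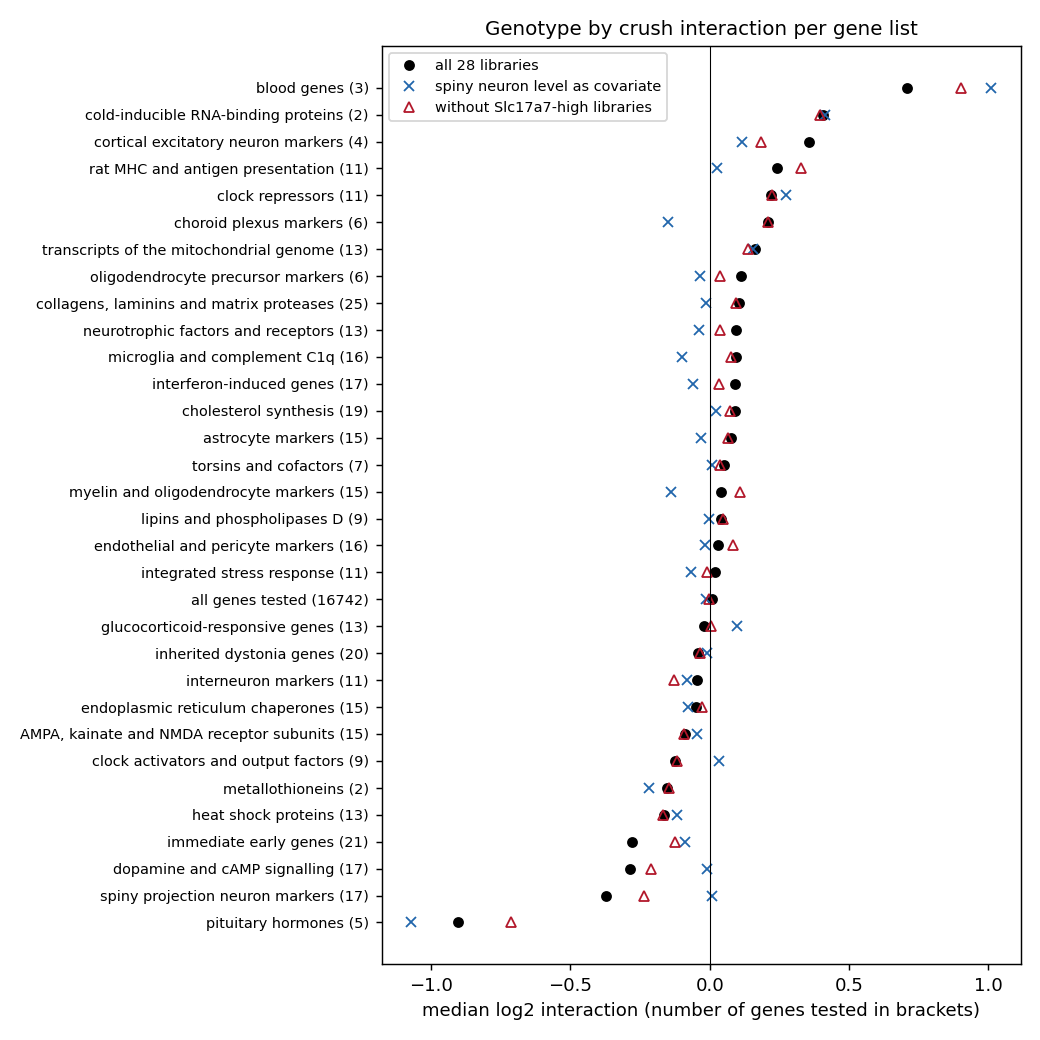
Median log2 interaction (horizontal axis) of each gene list and of all genes tested, with the number of genes tested in brackets; filled circles use all 28 libraries, crosses add the spiny neuron level as a covariate and triangles leave out the 5 libraries over 20 RPM of Slc17a7. Clock repressors have medians of 0.22 to 0.27 under the 3 settings; spiny neuron markers have -0.37 with all libraries and -0.24 without the 5, and their cross lies near 0 by construction, since they make up the covariate.

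Cold-inducible RNA-binding proteins, whose transcripts rise when tissue cools, were both positive. Rbm3 had 0.56 (SE 0.16, adjusted p = 0.419) and rose by 0.81 log2 in TG rats, with 0.25 (adjusted p = 0.205) in wt rats, and Cirbp had 0.26 (SE 0.13). Rbm3 lay at 27.8, 34.6 and 52.0 RPM in TG crush, 16.2, 20.3 and 26.8 in TG naive, 32.5, 33.0 and 36.4 in wt crush, and 24.2, 27.5 and 37.7 in wt naive libraries. Its TG crush libraries exceeded all TG naive libraries, and 7 of 8 TG naive libraries lay below every wt naive library. Heat shock proteins, a list of mostly cytosolic chaperones with the mitochondrial pair Hspd1 and Hspe1, were negative for 11 of 13, with a median of -0.16 log2. Hsph1, a heat shock protein of the HSP110 family, had -0.41 (SE 0.16) and the mitochondrial cochaperone Hspe1 -0.23 (SE 0.09). This median was -0.12 with the spiny neuron covariate and -0.08 without TG crush library 223.

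Immune lists had positive medians with all libraries, which came near 0 or changed sign in some other settings. Rat MHC and antigen presentation genes were positive for 9 of 11 (8 after quantile normalization), with a median of 0.24, which became 0.02 with the spiny neuron covariate. Without the libraries high in Slc17a7, 11 of 11 were positive with a median of 0.33, and without TG crush library 223 the median was 0.18. RT1-Bb, an MHC class II chain, had 0.96 (SE 0.49). Its levels were 0.736, 2.02 and 4.99 RPM in TG crush, 0.719, 1.82 and 4.87 in TG naive, 0.566, 0.782 and 1.15 in wt crush, and 1.11, 1.74 and 5.39 in wt naive libraries, lowest in wt crush. Interferon-induced genes were positive for 13 of 17 with a median of 0.09, but for 6 of 17 with the covariate (median -0.06) and 9 of 17 without TG crush library 223 (median 0.01). The antiviral GTPase Mx1 had 0.82 (SE 0.38). Microglia and complement genes had a median of 0.09, against -0.10 with the covariate (4 of 16 positive) and 0.03 without library 223. Within that list Gpr84, a receptor of activated microglia, had -0.50 (SE 0.15) and Itgam, an integrin subunit, 0.40 (SE 0.20).

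Glial and metabolic lists came next. The median was 0.08 for 15 astrocyte markers, with 0.21 (SE 0.12) for the gap junction gene Gja1, and 0.04 for 15 myelin and oligodendrocyte markers. Both turned negative with the covariate, at -0.03 and at -0.14 with all 15 myelin markers negative, and the myelin median was -0.05 without TG crush library 223. Cholesterol synthesis genes were positive for 17 of 19 in RPM and for 15 after median-of-ratios rescaling, with a median of 0.09 and 0.19 (SE 0.10) for Hmgcs1, the enzyme that makes HMG-CoA. With the covariate 11 of 19 were positive with a median of 0.02, and without the libraries high in Slc17a7 the median was 0.07. Transcripts of the mitochondrial genome were positive for 11 of 13, but for 7 of 13 after quantile normalization, with medians of 0.16 and 0.03. ND4L, a subunit of respiratory complex I, had 0.52 (SE 0.30). Glucocorticoid-responsive genes had a median of -0.02, or 0.10 with the covariate and 0.04 without library 223, with -0.58 (SE 0.25) for Cdkn1a, a cell cycle inhibitor, and 0.45 (SE 0.21) for the sulfotransferase Sult1a1.

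The 7 torsins and cofactors, which include rat Tor1a, ran from -0.10 to 0.24 with a median of 0.05, and Tor1aip1, which encodes the torsin activator LAP1 of the nuclear envelope, had -0.10 (SE 0.07). The 20 inherited dystonia genes had a median of -0.04 and ranged from -0.49 (SE 0.28), in the anoctamin gene Ano3, to 0.16. Endoplasmic reticulum chaperones had a median of -0.05, with 10 of 15 negative and -0.20 (SE 0.10) for Hsp90b1. With the covariate all 15 were negative and their median was -0.08. The integrated stress response list had a median of 0.02, or -0.07 with the covariate. Within it Ppp1r15b, a subunit that directs dephosphorylation of eIF2 alpha, had 0.21 (SE 0.09). Neurotrophic factors and receptors had a median of 0.09, or -0.04 with the covariate and -0.02 without TG crush library 223, with -0.16 (SE 0.07) for Cntfr, and matrix genes 0.10, or -0.01 with the covariate, with 0.26 (SE 0.10) for the protease inhibitor Timp3. None of the genes in this paragraph passed the test, with a median SE of 0.118 over all genes.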

How the data were processed

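RNA of 28 striatal samples was sequenced in 2 runs with a kit that keeps strand, per the labels' protocols. The run of each library was not stated. STAR 2.6.1a, featureCounts of Subread 1.6.3, DESeq2 1.22.2 and Rnor_6.0 are named, per the submitters' processing notes. The authors deposited RPKM values with decimal commas (unit recorded as other) for 39538 genes, computed over the gene span with introns.

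RPM is the deposited RPKM times length in kilobases. RPM sums to the same total in every library, and 100% of values were whole reads within a tolerance of 0.02. At the lowest depth a count of 0 allows up to 0.103 RPM (3 reads), by counting error alone. In limma 3.58.1 under R 4.3.3, log2(RPM + 0.5) was fitted on 4 group means with trended variances over all 28 libraries. The pseudocount makes fold changes of low genes too small. A call is a Benjamini-Hochberg adjusted p under 0.05 over 16742 genes. TOR1A was compared by exact permutation tests (scipy 1.17.1). The fit was also run on simulated counts without differences in composition between libraries, so that run says nothing on such differences.

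Named were called genes, those of lowest p with a mean of at least 2 RPM up to 20 in all, up to 3 members of lowest p per list and all clock genes. Members and the 31 lists (377 of 407 entries tested) were chosen with earlier results of these data known. Promoters are from RefSeq. Figures used matplotlib 3.10.9 in Python 3.11.15.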

Additional observations from a re-analysis of the deposited data

Results flagged for a closer look

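The crush change of Nr1d2 differed between TG and wt rats by 0.48 log2 (SE 0.07, adjusted p = 0.00746), by the test of the interaction itself. It was positive in TG and in wt rats, at 0.83 and 0.36.

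A library lay apart from the rest of its group in 14 of 268 gene and group combinations checked (5.22%), where chance flags about 1 in 20. Among TG crush libraries, library 223 was lowest in Arntl (15.5 RPM), Hsph1 (220 RPM) and Gnal (319 RPM), and library 220 was highest in Slc17a7 (63.3 RPM). Among TG naive libraries, library 190 was highest in Mmp14 (18.6 RPM), Slc17a7 (55.8 RPM) and Gja1 (484 RPM). Among wt crush libraries, library 203 was lowest in Cry2 (156 RPM), Gnal (515 RPM) and Ppp1r15b (43.0 RPM), and library 207 was lowest in Rorb (45.4 RPM). Among wt naive libraries, the lowest were library 199 in Tgm2 (18.1 RPM), library 200 in Mppe1 (11.2 RPM) and library 202 in Ppp1r15b (41.1 RPM). Library 223 also had the lowest summed spiny neuron markers of TG crush rats, at 8254 RPM.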

How the results depend on the processing

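The interaction count was 2 with array weights (Nr1d2 and Tgm2) and 0 without the 5 libraries over 20 RPM of Slc17a7 or with TG crush library 223 also left out, a choice made after seeing the data. Under those 3 settings the genes called in TG rats were 1881, 183 and 268, and in wt rats 1705, 14 and 18. The interaction genes with an unadjusted p under 0.05 were 637 and 483 under the last 2 settings. With spiny neuron level added to the model, the calls were 1286 in TG and 7 in wt rats, and 760 genes had such a p. Without a filter the TG calls were 371 and 2012 genes had such a p, and 772 had it on the RPKM scale, where 11374 genes were tested. The causes of these shifts were not tested. The other alternatives, pseudocounts of 0.1 and 2, a filter on 14 libraries, median-of-ratios, quantile normalization, robust variances and voom on whole reads, kept the interaction count at 1, the gene being Nr1d2.

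Leaving out each library in turn gave 1 to 5 interaction calls, always with Nr1d2. There were 5 without TG crush library 214 (also Tgm2, Cd93, LOC500476 and RGD1562963), 3 without 223 (also Tgm2 and Cd93), 2 without 219 (also Mettl24) and 2 without TG naive library 187 (also Per3). TG calls ranged from 230 to 1269, wt calls from 11 to 613, and genes with an unadjusted p under 0.05 from 962 to 1708. TG calls moved by over 1.5 times in 10 of 28 cases. They were 334, 230, 242, 1269 and 1142 without TG crush libraries 214, 220, 222, 223 and 226, and 1106, 353, 351, 301 and 286 without TG naive libraries 188, 189, 190, 191 and 193. Calls in wt rats did so in 14 cases. They were 50, 61 and 135 without TG crush libraries 214, 222 and 223, 49 without TG naive library 188, 48, 11, 15, 14 and 13 without wt crush libraries 203, 205, 206, 207 and 210, and 613, 12, 61, 13 and 50 without wt naive libraries 196, 197, 198, 201 and 202.

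Signs changed for 4 clock genes close to 0. Cry2 had -0.0104 with median-of-ratios and -0.000104 with voom, and -0.0213 to 0.0440 with libraries left out. Hlf had 0.11 with array weights, 0.25 with the covariate, 0.0412 without the libraries high in Slc17a7 and 0.18 with library 223 also out, and -0.10 to 0.0789 with single libraries out. Per1 had 0.0302, 0.158, 0.0896 and 0.199 under the same 4 settings and -0.0779 to 0.0596 with single libraries out. Rora had 0.0347 with the covariate. No paired analysis was possible because the groups share no replicate numbers. With a median SE of 0.118, interactions of that size were not detectable here.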

Other observations

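LOC500476, a pseudogene on chromosome 5 at 84571472 to 84573949 (Rnor_6.0), had the interaction farthest from 0, at -5.71 log2 (SE 1.39, adjusted p = 0.328), and was chosen after its values were seen. Its lowest, median and highest levels were 0.062, 0.114 and 25.2 RPM in TG crush, 0.083, 10.7 and 17.9 in TG naive, 13.4, 20.7 and 26.3 in wt crush, and 0.0602, 0.150 and 15.4 in wt naive libraries. The low values stand near the limit that a count of 0 allows (0.103 RPM in the library of lowest depth), and every group but wt crush had libraries near it.

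Transcripts of pituitary, blood and choroid plexus also varied between libraries, with no call by limma. Of 5 tested pituitary hormone genes 4 had a negative interaction. Gh1, growth hormone, had lowest, median and highest levels of 0.596, 2.21 and 41.9 RPM in TG crush, 0.0260, 0.996 and 17.3 in TG naive, 0.349, 8.34 and 32.5 in wt crush, and 0, 0.0617 and 2.04 in wt naive libraries, with an interaction of -2.10 (SE 1.13). The 3 tested blood genes were positive, with a median of 0.71, and the beta-globin gene Hbb had 21.3, 23.8 and 39.8 RPM in TG crush, 7.68, 13.1 and 56.5 in TG naive, 9.30, 15.1 and 27.2 in wt crush, and 3.93, 18.5 and 30.2 in wt naive libraries. Ttr, transthyretin of the choroid plexus, had 6.19, 20.4 and 77.5 RPM in TG crush, 2.57, 20.2 and 126 in TG naive, 4.25, 7.28 and 13.6 in wt crush, and 2.65, 13.4 and 50.5 in wt naive libraries, and the 6 choroid plexus markers had a median interaction of 0.21, or -0.15 with the spiny neuron covariate. The part of these tissues in the other results was not tested.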
